A study of Mus musculus with 12 samples.

Results

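Aminoacyl-tRNA synthetases, the enzymes that load amino acids onto their transfer RNAs, were followed as transcripts in left ventricular myocardium of 12 male C57BL/6 mice, with 1 array for each mouse. A synthetase gene was represented by a probe set annotated to its symbol alone, and among several such probe sets by the one with the highest mean over the 12 arrays. Of 36 listed genes, 35 had such a probe set and all 35 passed the filter on dim probe sets (log2 signal above 4 on at least 3 of the 12 arrays), out of 10435 genes tested. They are 19 of 20 cytosolic enzymes and 16 of 16 mitochondrial enzymes, whose symbols end in 2. Dars, the cytosolic aspartyl enzyme, was not analysed here. In the DB3 group the mice had the aorta banded at 7 weeks of age, the band was taken off 4 weeks later, and the ventricle was collected 3 days after that. Mice of the AB group were banded at 7 weeks of age and studied 4 weeks later with the band in place. The sDB3 mice had a sham operation in place of banding, went through the later debanding step and were collected at the same 3 days, and the sAB mice had the sham operation and were collected at 4 weeks. Each group held 3 mice.

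Each synthetase recognises 1 amino acid and the transfer RNAs that belong to it, and the charged transfer RNAs are what the ribosome reads. Cytosolic ribosomes and mitochondrial ribosomes draw mostly on separate synthetases, both encoded in the nucleus. Gars and Kars are exceptions, since each gene yields the glycyl or lysyl enzyme of both compartments. Transcription of many cytosolic synthetase genes is known to rise with the transcription factor ATF4 when amino acids are short or unfolded protein accumulates, and the growth of the overloaded ventricle is known to involve faster protein synthesis. Part of the cytosolic enzymes are held in the multisynthetase complex, a particle built around the scaffold proteins Aimp1, Aimp2 and Eef1e1.

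Promoters of 26 of the 35 measured synthetase genes, 12 cytosolic and 14 mitochondrial, were matched by symbol in the RefSeq promoter sequences of GRCm38.p6, each running from 250 bases before the annotated start to 50 bases after it. The letters TGATGNAA, the core of the composite element that ATF4 forms with C/EBP proteins, were searched on both strands. They occurred in 5 of the 12 cytosolic promoters (41.7%) and in 0 of the 14 mitochondrial ones, in 2.75% of the 8473 tested genes with a promoter and in 3.97% of all 32851 promoters. The E-box letters CACGTG, which MYC and related factors bind, occurred in 4 of the 12 cytosolic promoters (33.3%; Aars, Farsb, Iars and Tars) and in 1 of the 14 mitochondrial promoters (7.14%; Ears2), against 12.1% of the tested genes with a promoter and 7.15% of all promoters. The 5 promoters with TGATGNAA are printed because they include Aars, Iars, Tars and Gars, which passed the test in at least 1 comparison with a sham. Each line gives the gene's own strand, 5′ to 3′, from 150 bases before the start through the first 25 bases of the transcript, with the TGATGNAA matches in capitals. The match lies on the opposite strand in Gars, Aars, Iars and Tars, where the gene strand reads TTGCATCA or TTTCATCA, and on the gene's own strand in Yars. Aars holds a pair of matches, at positions -112 to -105 and 9 to 16 counted from the start base as 0. No match overlapped a CACGTG. A run of matching letters describes the sequence and does not show that a factor was bound.
Yars: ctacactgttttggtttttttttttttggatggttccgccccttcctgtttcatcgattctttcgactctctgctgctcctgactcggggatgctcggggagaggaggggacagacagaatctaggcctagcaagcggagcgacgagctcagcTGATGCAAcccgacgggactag
Gars: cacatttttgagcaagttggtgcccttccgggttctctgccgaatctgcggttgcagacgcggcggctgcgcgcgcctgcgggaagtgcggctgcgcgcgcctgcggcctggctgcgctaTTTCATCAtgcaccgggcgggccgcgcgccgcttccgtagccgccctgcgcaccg
Aars: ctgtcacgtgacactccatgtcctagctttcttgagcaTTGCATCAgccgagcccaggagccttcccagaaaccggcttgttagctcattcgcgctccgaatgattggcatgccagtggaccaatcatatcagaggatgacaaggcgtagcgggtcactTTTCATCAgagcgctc
Iars: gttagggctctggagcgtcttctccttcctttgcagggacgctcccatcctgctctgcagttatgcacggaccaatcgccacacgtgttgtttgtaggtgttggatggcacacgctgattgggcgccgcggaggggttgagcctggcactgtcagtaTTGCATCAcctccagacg
Tars: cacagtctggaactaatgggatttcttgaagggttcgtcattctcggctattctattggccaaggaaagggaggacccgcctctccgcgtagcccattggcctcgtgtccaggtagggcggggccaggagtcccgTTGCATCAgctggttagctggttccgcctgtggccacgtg
The positions in GRCm38.p6 are chr4:129189753-129189927 on the plus strand for Yars, chr6:55037851-55038025 on the plus strand for Gars, chr8:111033692-111033866 on the plus strand for Aars, chr13:49681980-49682154 on the plus strand for Iars and chr15:11399634-11399808 on the minus strand for Tars.

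The deposited values are log2 signals, and a difference of group means is a log2 difference throughout. The sAB arrays stood apart on BioC, a bacterial RNA added to the hybridisation: its log2 signal was 10.15 to 10.51 on them and 8.28 to 8.60 on the other 9 arrays. They also stood apart, on the lower side, on the added control Cre (14.11 to 14.28, against 14.39 to 14.68 on the other 9 arrays). The added controls BioB and BioD overlapped. Batch and group therefore cannot be told apart wherever sAB is used, and AB was also set against sDB3, which shares the lower BioC level but had another operation and 3 further days. RNA quality was read from Actb as its 3′ minus its 5′ probe set, which came to 1.11 to 1.32 on DB3, 1.02 to 1.13 on AB, 1.20 to 1.25 on sDB3 and 1.20 to 1.26 on sAB arrays. It ran lowest on AB, where the cytosolic synthetases ran highest, and its part in the results was not tested. All 7 cardiomyocyte markers passed the dim filter, and 0 of 4 measured T and B cell markers did. The summed signal of the cardiomyocyte markers was 311400 to 315000 on DB3 and 302200 to 316900 on AB arrays, against 331900 to 338900 on sDB3 and 317700 to 325200 on sAB arrays, so that every DB3 and AB array lay below every sham array. Single markers differed. In AB against sAB 2 of the 7 passed higher and 0 lower by limma (adjusted p under 0.05), beside 12% and 7.69% of all genes. The 2 were Mybpc3 (group means 14.13 in AB and 13.77 in sAB) and Actn2 (14.28 and 14.05). In AB against sDB3 0 passed higher and 1 lower, beside 17.3% and 4.69%, and in DB3 against sDB3 0 passed and 0 had a difference above 0. The summed signal of 5 fibroblast markers was 15590 to 19190 on DB3 and 15970 to 21390 on AB arrays, against 12950 to 13630 on sDB3 and 12540 to 17540 on sAB arrays. That of 5 endothelial markers was 3250 to 4055 on DB3 and 4109 to 4388 on AB, against 3135 to 3879 on sDB3 and 3731 to 3897 on sAB. The 6 macrophage markers summed to 4189 to 4543 on DB3 and 4181 to 5088 on AB, against 3684 to 4485 on sDB3 and 4206 to 8932 on sAB, and the 2 measured neutrophil markers reached 855.2 on sAB and at most 248.8 elsewhere. The 3 atrial markers summed to between 70.7 and 14280 within DB3 alone, to 1585 to 8527 on AB, to 2470 to 15840 on sDB3 and to 385 to 1464 on sAB arrays. Synthetases are made in every cell type, so in these whole-tissue samples fewer cells of a type and less RNA per cell cannot be told apart, and the part of the cell mixture in the results was not tested.

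Averaged over their genes, the cytosolic synthetases were higher on every DB3 and AB array than on any sham array, while the means of the mitochondrial ones overlapped but were lower relative to all genes. The mean log2 signal of the 19 cytosolic enzymes was 9.21 to 9.31 on DB3 arrays and 9.27 to 9.34 on AB arrays, against 9.003 to 9.12 on sDB3 and 9.11 to 9.12 on sAB arrays. For the 16 mitochondrial enzymes the array means were 7.36 to 7.46 on DB3, 7.42 to 7.46 on AB, 7.42 to 7.51 on sDB3 and 7.44 to 7.50 on sAB arrays, ranges that overlap. Over all 10435 genes the array means were 8.09 to 8.16 on DB3, 8.15 to 8.19 on AB, 7.99 to 8.06 on sDB3 and 8.08 to 8.15 on sAB arrays, so sDB3 lay low as a whole. An offset common to an array cancels when 1 class is taken from the other. The cytosolic mean minus the mitochondrial mean was 1.84 ± 0.0091 in DB3 and 1.88 ± 0.056 in AB, against 1.58 ± 0.027 in sDB3 and 1.65 ± 0.026 in sAB (SD, n = 3 each). The lowest DB3 or AB array stood at 1.81 and the highest sham array at 1.67. Taken relative to the mean of all genes, both classes moved. The cytosolic mean minus the all-gene mean was 1.11 ± 0.048 in DB3 and 1.15 ± 0.035 in AB, against 1.02 ± 0.035 in sDB3 and 0.998 ± 0.027 in sAB, and the lowest DB3 array (1.057) was barely above the highest sDB3 array (1.053). The mitochondrial mean minus the all-gene mean was -0.74 ± 0.038 in DB3 and -0.73 ± 0.027 in AB, against -0.57 ± 0.010 in sDB3 and -0.65 ± 0.0039 in sAB, with every DB3 and AB array below every sham array.

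**Figure D1:**
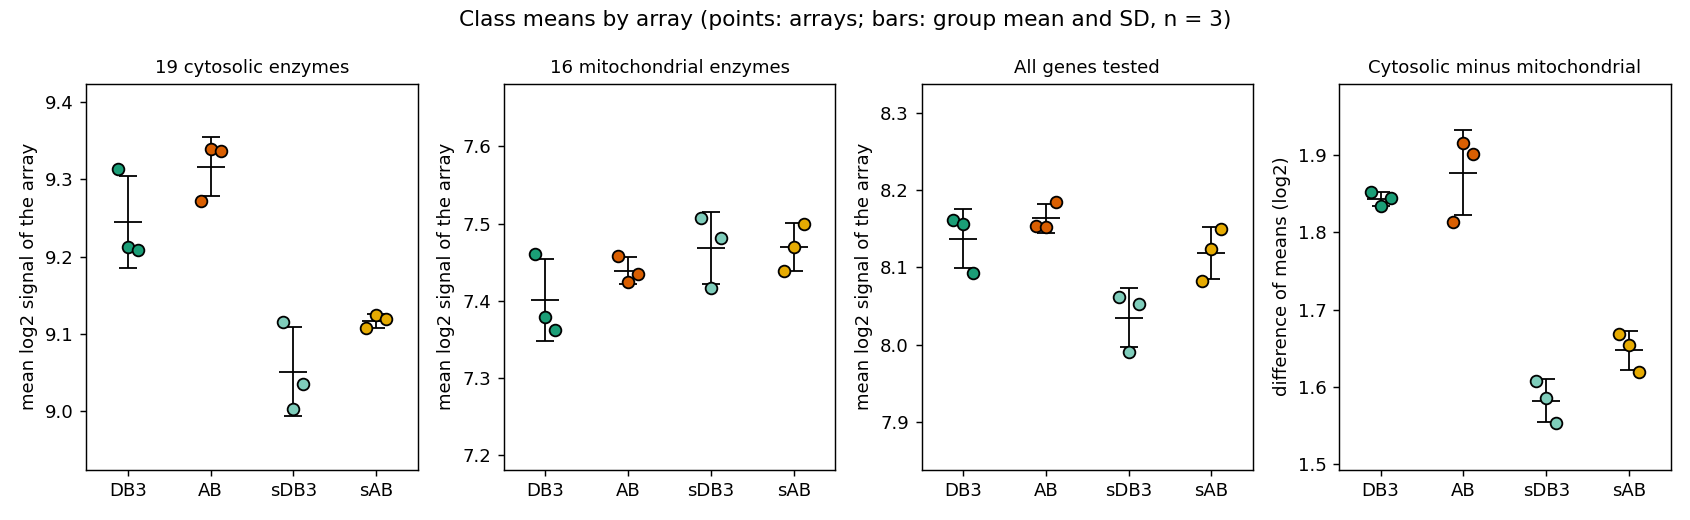
Mean log2 signal of each array (vertical axes) over the 19 cytosolic enzymes, the 16 mitochondrial enzymes and all 10435 genes tested, and the cytosolic mean minus the mitochondrial mean, for DB3, AB, sDB3 and sAB; points are arrays and bars give the group mean and SD (n = 3). In the last panel the DB3 and AB arrays lie between 1.81 and 1.92 and the sham arrays between 1.55 and 1.67.

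The comparison of AB with sAB addressed what 4 weeks of pressure overload change. Of the 19 cytosolic synthetases, 8 rose and 0 fell in AB by limma at a Benjamini-Hochberg adjusted p under 0.05 over all genes, where 12% of all genes tested rose and 7.69% fell (19.7% either way). Of the 16 mitochondrial synthetases, 0 rose and 2 fell. The median log2 difference was 0.24 over the cytosolic, -0.10 over the mitochondrial and 0.012 over all genes tested. With quantile normalization, and with each array centred on its median, 6 synthetases rose and 4 fell in place of 8 and 2. The AB and sAB arrays did not overlap for 11 cytosolic genes on the higher and 2 on the lower side, where 23.1% and 19% of all genes did so. For mitochondrial genes these counts were 4 and 6.

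**Figure D2:**
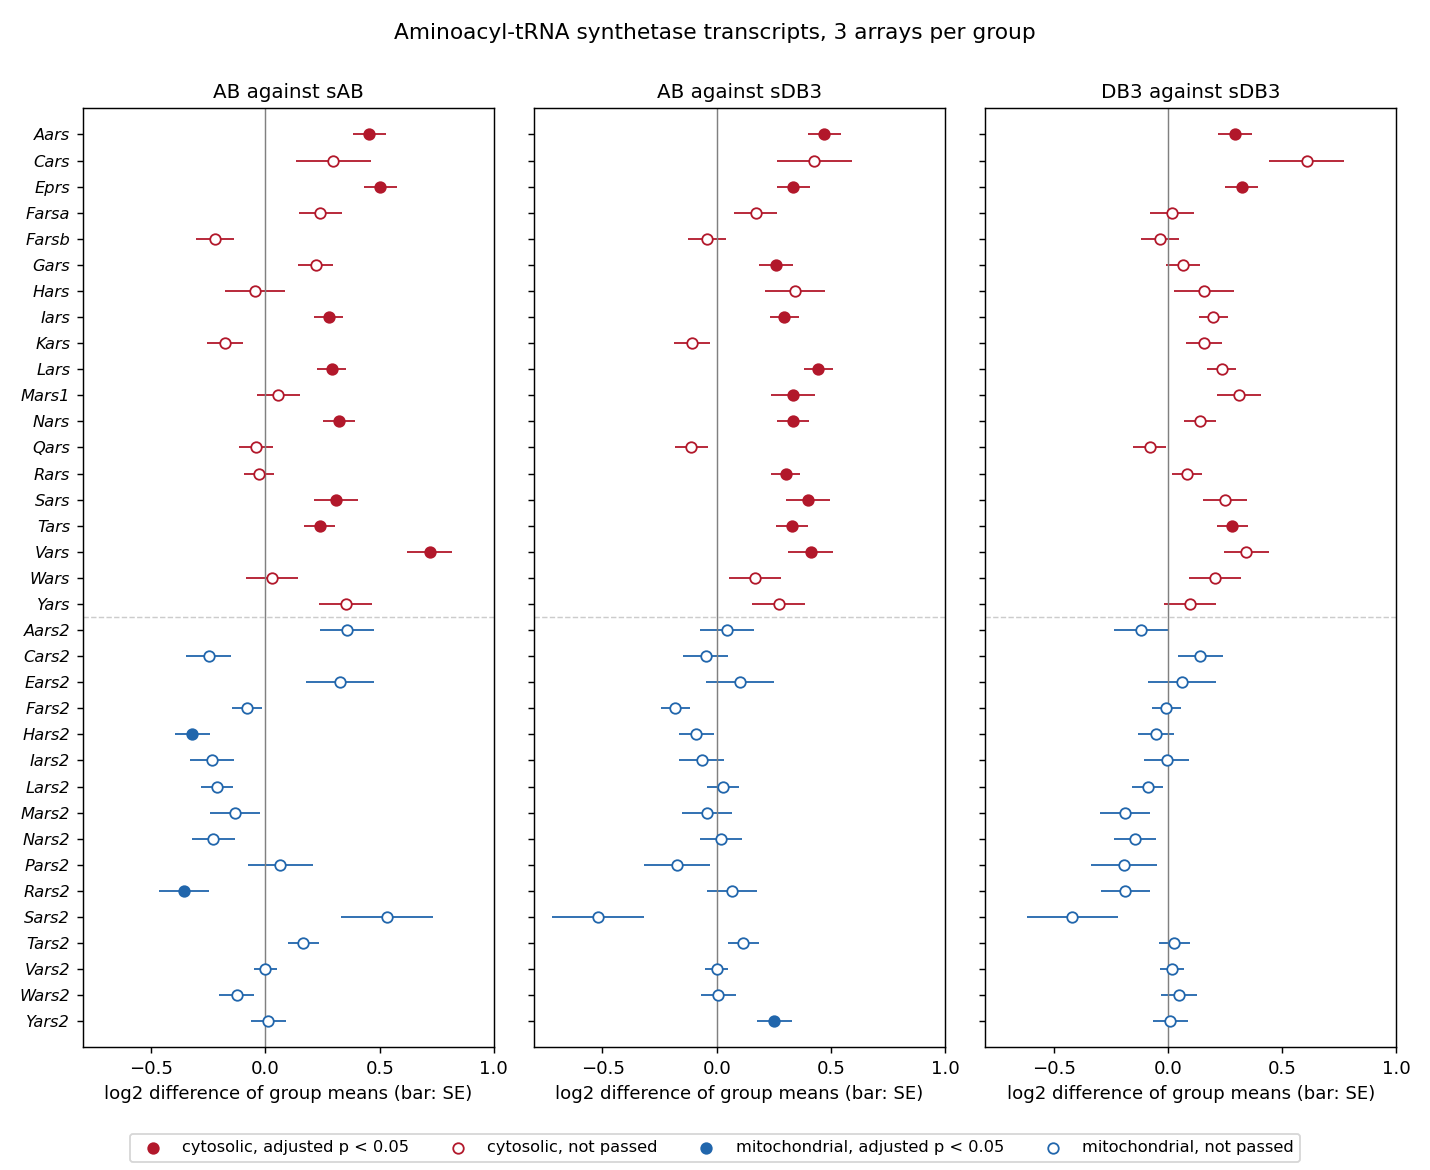
Log2 difference of group means (horizontal axes) with its SE for each of the 35 synthetase transcripts in AB against sAB, AB against sDB3 and DB3 against sDB3; red marks cytosolic and blue mitochondrial enzymes, and filled points passed an adjusted p of 0.05. In AB against sAB the filled red points run from 0.24 to 0.72 and the filled blue points are Hars2 and Rars2, at -0.32 and -0.36.

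Vars, the valyl enzyme, had log2 signals of 6.05, 6.30 and 6.22 in AB, against 5.67, 5.35 and 5.39 in sAB, and rose 1.65-fold (0.72 ± 0.098, SE, n = 3 per group, limma adjusted p = 0.000901). Eprs, which joins the glutamyl and prolyl activities in 1 protein, had 10.48, 10.49 and 10.46 in AB, against 9.992, 9.997 and 9.938 in sAB, and rose 1.42-fold (0.50 ± 0.073, adjusted p = 0.00122). Aars, the alanyl enzyme, had 9.59, 9.56 and 9.66 in AB, against 9.02, 9.27 and 9.15 in sAB, and rose 1.37-fold (0.45 ± 0.073, adjusted p = 0.00222). In each of these 3 genes every AB array lay above every sAB array. Their levels in the other sham differed: for Vars and Eprs the 3 sAB arrays lay below all other 9 arrays, as they did for 6.47% of all genes tested, while for Aars the sAB and sDB3 arrays overlapped. A further probe set of Aars rose by 0.51 (adjusted p = 0.00426) and the further probe sets of Eprs by 0.39 and 0.23 (adjusted p = 0.00738 and 0.0201), as adjusted by limma over all probe sets.

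Nars, Lars and Iars, which charge the transfer RNAs of asparagine, leucine and isoleucine, moved by smaller amounts with little scatter in AB. Nars had 10.80, 10.87 and 10.84 in AB, against 10.52, 10.43 and 10.60 in sAB (0.32 ± 0.070, limma adjusted p = 0.00958). Lars had 10.24, 10.14 and 10.21 in AB, against 9.94, 9.91 and 9.86 in sAB (0.29 ± 0.064, adjusted p = 0.0102). Iars had 10.95, 10.93 and 10.95 in AB, against 10.70, 10.65 and 10.65 in sAB (0.28 ± 0.064, adjusted p = 0.0125). The groups did not overlap for any of them. The further probe sets of Nars (0.28, limma adjusted p = 0.0552) and Iars (0.21, adjusted p = 0.105) did not pass over all probe sets. These 3 genes and Aars were the synthetases for which all AB arrays lay above all other 9 arrays, as they did for 6.75% of all genes tested. Aars, Eprs, Iars, Lars, Nars and Vars passed the test in all 21 alternatives run for this comparison.

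The calls of Sars and Tars, the seryl and threonyl enzymes, were less stable. Sars had 9.90, 10.07 and 10.12 in AB, against 9.53, 9.82 and 9.81 in sAB, with the lowest AB array just above the highest sAB array (0.31 ± 0.096, limma adjusted p = 0.0444). It passed in 8 of 21 alternatives and in 4 of the 12 that leave out 1 array, with adjusted p up to 0.151. A further probe set of Sars rose by 0.41 (limma adjusted p = 0.0198 over all probe sets). Tars had 8.91, 8.74 and 8.90 in AB, against 8.68, 8.58 and 8.59 in sAB (0.24 ± 0.068, adjusted p = 0.0332). The arrays whose removal lost its call were AB replicates 1 and 3 and sAB replicates 2 and 3 (adjusted p at most 0.116), and it was lost with either scaling.

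The other 11 cytosolic genes did not pass in AB against sAB. Yars, the tyrosyl enzyme, and Gars, the glycyl enzyme, came closest on the higher side, at 0.35 ± 0.12 (limma adjusted p = 0.0547) and 0.22 ± 0.076 (adjusted p = 0.0653), and their AB and sAB arrays did not overlap. Cars (0.30), Farsa (0.24), Mars1 (0.057) and Wars (0.030) had positive differences, and Rars (-0.028), Qars (-0.040), Hars (-0.046), Kars (-0.18) and Farsb (-0.22) negative ones. Farsa and Farsb encode the 2 subunits of the cytosolic phenylalanyl enzyme. Kars, the lysyl enzyme, had 9.63, 9.51 and 9.66 in AB, against 9.79, 9.72 and 9.82 in sAB, without overlap (adjusted p = 0.143).

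Qars, the glutaminyl enzyme, depended on the probe set. The probe set used here gave -0.040, and another probe set of the gene fell by 0.50 (limma adjusted p = 0.00241 over all probe sets), while a further one that passed the dim filter gave -0.012. On the probe set that fell the group means were 10.13 in DB3, 9.93 in AB, 9.99 in sDB3 and 10.43 in sAB, so that sAB was the group that stood apart. Both the used probe set and the one that fell are of the type whose probes may bind other transcripts. So are the probe sets used for Farsb and Wars. In AB against sAB their further probe sets that passed the dim filter gave -0.071 and -0.14 for Farsb. Those of Wars gave 0.15, 0.11 and -0.061.

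Among mitochondrial enzymes Hars2, the histidyl enzyme, had 6.81, 6.67 and 6.54 in AB, against 7.06, 6.92 and 7.01 in sAB, and fell by 0.32 on the log2 scale (SE 0.078, limma adjusted p = 0.0166). A further probe set of Hars2 gave -0.17 without passing (limma adjusted p = 0.229 over all probe sets). Rars2, the arginyl enzyme, had 7.58, 7.43 and 7.56 in AB, against 7.72, 8.05 and 7.87 in sAB, and fell by 0.36 (SE 0.11, adjusted p = 0.0422). Neither gene's groups overlapped, and in both, as in Lars2 and Nars2, the 3 sAB arrays lay above all other 9 arrays, as they did for 6.56% of all genes tested. Without AB replicate 2, AB replicate 3 or sAB replicate 1 the call of Hars2 was lost (adjusted p at most 0.0696). That of Rars2 was lost in 7 of the 12 fits that leave out 1 array, those without DB3 replicate 2, any AB replicate, sDB3 replicate 2, sAB replicate 2 or sAB replicate 3 (adjusted p up to 0.137).

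The remaining 14 mitochondrial genes did not pass in AB against sAB. Lars2, Nars2, Iars2 and Cars2 had differences of -0.21, -0.23, -0.23 and -0.25 with no overlap of the groups, and Mars2, Wars2 and Fars2 stood at -0.13, -0.13 and -0.080. Aars2 (0.36, adjusted p = 0.055), Ears2 (0.32) and Tars2 (0.17) had positive differences without overlap. The largest of the class was that of Sars2, the seryl enzyme (0.53 ± 0.20, limma adjusted p = 0.0893), whose lowest AB array lay just above its highest sAB array. Pars2 and Yars2 stood at 0.065 and 0.013. Vars2 gave the single value 6.73 on 10 of the 12 arrays and Mars2 the single value 5.81 on 5 arrays, so their differences say little about the transcripts.

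AB against sDB3 set the banded hearts against the sham that shares their BioC level. Of the 19 cytosolic synthetases, 11 rose and 0 fell, where 17.3% of all genes tested rose and 4.69% fell (22% either way). Of the 16 mitochondrial ones, 1 rose and 0 fell. Median log2 differences were 0.33 over the cytosolic, 0.003 over the mitochondrial and 0.11 over all genes tested, so AB lay above sDB3 across the array. Centring each array on its median moved the median of all genes to -0.042, and then 2 synthetases rose (Aars and Lars) and 3 fell (Kars, Fars2 and Sars2), in place of 12 and 0. With quantile normalization 8 rose and 2 fell. The cytosolic groups did not overlap for 15 genes on the higher side and for 0 on the lower, where 32.5% and 10.5% of all genes did so.

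Aars (0.47 ± 0.073, limma adjusted p = 0.0024) and Lars (0.44 ± 0.064, adjusted p = 0.00159) had the largest differences among the synthetases that passed and were called in all 21 alternatives. Sars2 lay further from sDB3, on the lower side, without passing (-0.52 ± 0.20, adjusted p = 0.0881). Aars had 9.59, 9.56 and 9.66 in AB, against 9.15, 9.08 and 9.16 in sDB3. Lars had 10.24, 10.14 and 10.21 in AB, against 9.80, 9.69 and 9.75 in sDB3. Eprs (0.34), Iars (0.30), Nars (0.33), Sars (0.40), Tars (0.33) and Vars (0.41) also rose, with adjusted p between 0.0084 and 0.0157, so all 8 cytosolic genes that rose against sAB rose against sDB3. The AB arrays are shared by both comparisons. Of the further probe sets, 1 of Eprs (0.18, limma adjusted p = 0.143) and that of Iars (0.19, adjusted p = 0.141) did not pass. The other of Eprs and those of Aars, Nars and Sars rose, with adjusted p between 0.0157 and 0.0232 over all probe sets. Without AB replicate 2 or AB replicate 3 the calls of Vars and Sars were lost (adjusted p at most 0.0611 and 0.0657), and that of Sars also without sDB3 replicate 1.

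Rars, Mars1 and Gars, the arginyl, methionyl and glycyl enzymes, passed against sDB3 and not against sAB. Rars had 9.11, 9.18 and 9.29 in AB, against 8.95, 8.87 and 8.86 in sDB3 (0.30 ± 0.065, limma adjusted p = 0.01). Mars1 had 9.56, 9.59 and 9.55 in AB, against 9.40, 9.11 and 9.18 in sDB3 (0.34 ± 0.095, adjusted p = 0.0307). Gars had 10.14, 10.42 and 10.31 in AB, against 10.09, 9.98 and 10.03 in sDB3 (0.26 ± 0.076, adjusted p = 0.0334). For Mars1, Lars and Tars the 3 sDB3 arrays lay below all other 9 arrays, as they did for 6.66% of all genes tested. Leaving out 1 array took the adjusted p of Mars1 up to 0.101 and that of Gars up to 0.12, with the calls lost without AB replicate 2, AB replicate 3, sDB3 replicate 2 or sDB3 replicate 3 in both genes and also without AB replicate 1 in Mars1. Yars2, the mitochondrial tyrosyl enzyme, had 8.74, 8.72 and 8.70 in AB, against 8.59, 8.33 and 8.49 in sDB3 (0.25 ± 0.076, adjusted p = 0.0367), a call lost in 6 of the 12 fits that leave out 1 array (adjusted p up to 0.116). A further probe set of Yars2 gave 0.011 (limma adjusted p = 0.977 over all probe sets).

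**Figure D3:**
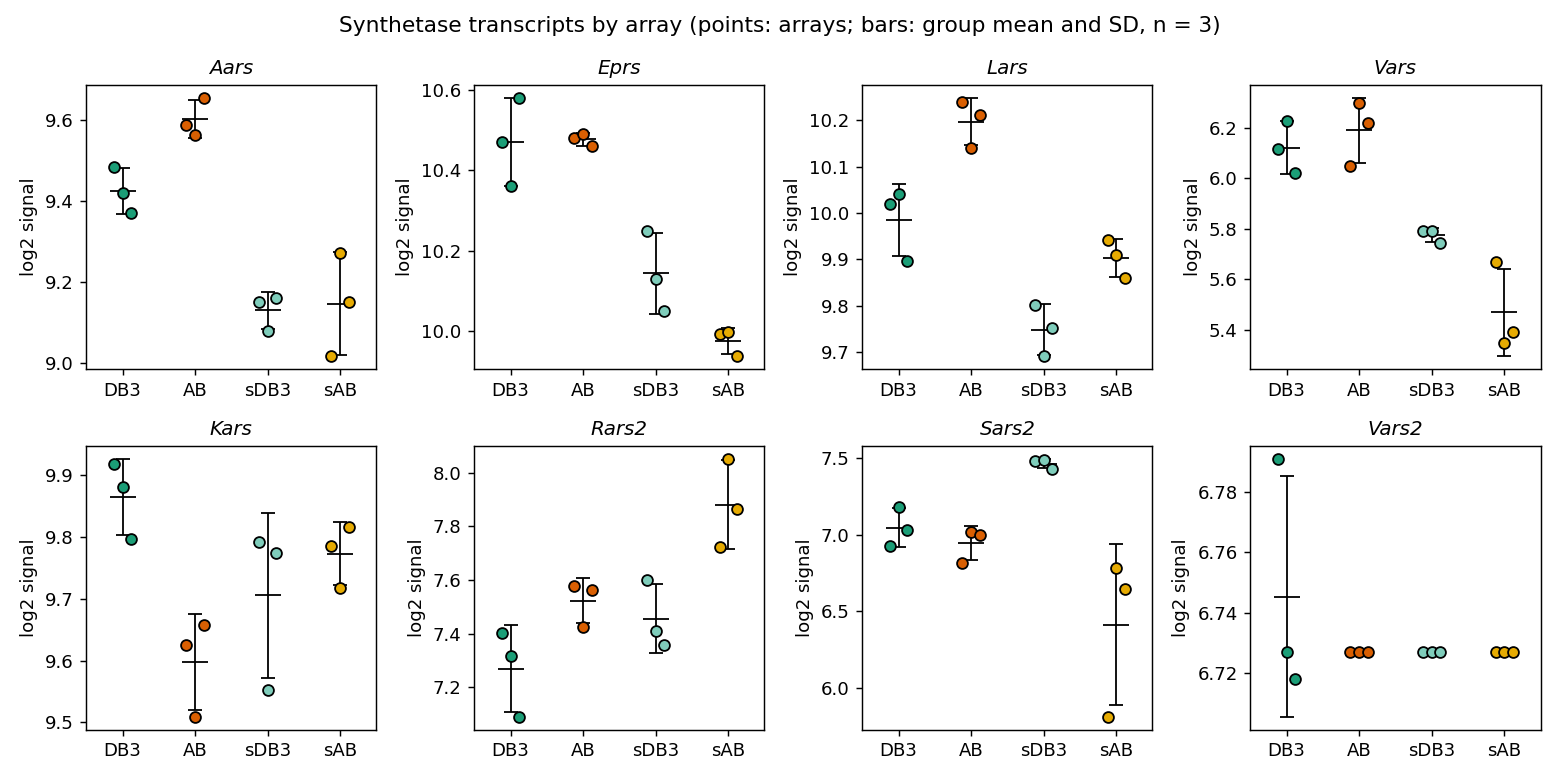
Log2 signal (vertical axes) of 8 synthetase transcripts on each array of DB3, AB, sDB3 and sAB; points are arrays and bars give the group mean and SD (n = 3). Aars, Eprs and Vars lie higher on every DB3 and AB array than on any sham array, the sAB arrays of Sars2 spread from 5.81 to 6.78, and Vars2 has 1 value on 10 arrays.

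DB3 against sDB3 addressed what remained 3 days after the band was removed. Of the 19 cytosolic synthetases, 3 rose and 0 fell, where 5.37% of all genes tested rose and 0.997% fell (6.36% either way). Of the 16 mitochondrial ones, 0 rose and 0 fell by limma's adjusted test, and 0 had an unadjusted p under 0.05. Sars2 had the lowest p of the class (-0.42 ± 0.20, adjusted p = 0.221). Median log2 differences were 0.20 over the cytosolic, -0.029 over the mitochondrial and 0.091 over all genes tested. The DB3 and sDB3 arrays did not overlap for 11 cytosolic genes on the higher side and 1 on the lower, where 22.4% and 5.74% of all genes did so, and for 0 and 1 mitochondrial genes.

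Eprs had 10.47, 10.36 and 10.58 in DB3, against 10.25, 10.13 and 10.05 in sDB3, and rose 1.25-fold (0.32 ± 0.073, limma adjusted p = 0.0334). Aars had 9.48, 9.42 and 9.37 in DB3, against 9.15, 9.08 and 9.16 in sDB3, and rose 1.23-fold (0.29 ± 0.073, adjusted p = 0.0439). Tars had 8.83, 8.86 and 8.73 in DB3, against 8.55, 8.53 and 8.48 in sDB3, and rose 1.22-fold (0.28 ± 0.068, adjusted p = 0.0399). The groups did not overlap in any of these genes. Over all probe sets the further one of Aars gave 0.27 (limma adjusted p = 0.116), and those of Eprs 0.15 and 0.26 (adjusted p = 0.304 and 0.04). None of the 3 calls remained with quantile normalization, with centred arrays or with a fit of these groups alone. Leaving out DB3 replicate 1, DB3 replicate 3, AB replicate 3, sDB3 replicate 2 or sDB3 replicate 3 ended all 3 calls (adjusted p up to 0.116 for Aars, 0.081 for Eprs and 0.101 for Tars).

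Several further cytosolic genes had like differences in DB3 without passing. Cars, the cysteinyl enzyme, had 7.10, 6.63 and 7.08 in DB3, against 6.63, 6.06 and 6.29 in sDB3, and gave the largest difference of all synthetases here (0.61 ± 0.16, limma adjusted p = 0.0529), with groups that overlapped. Lars (0.24, adjusted p = 0.0522), Vars (0.34, adjusted p = 0.0633), Mars1 (0.31, adjusted p = 0.0753) and Iars (0.20, adjusted p = 0.0855) followed, each without overlap. Sars (0.25), Wars (0.21), Kars (0.16), Hars (0.16), Nars (0.14), Yars (0.097), Rars (0.084), Gars (0.065) and Farsa (0.019) also had positive differences, and Farsb (-0.035) and Qars (-0.080) negative ones.

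DB3 against AB set debanded hearts against hearts still banded. Here 0 of the 35 synthetases passed limma's adjusted test, by which 4.04% of all genes tested rose and 5.12% fell (9.16% either way). At an unadjusted p under 0.05 there were 9. The per-gene analysis of variance without moderation called 2 (both lower), beside 348 higher and 433 lower among all 10435 genes. The median log2 difference was -0.097 over the cytosolic, -0.030 over the mitochondrial and -0.017 over all genes tested. Lars had 10.02, 10.04 and 9.90 in DB3, against 10.24, 10.14 and 10.21 in AB (-0.21 ± 0.064, adjusted p = 0.0686). Rars had 9.01, 9.01 and 8.91 in DB3, against 9.11, 9.18 and 9.29 in AB (-0.22 ± 0.065, adjusted p = 0.0623). Kars ran the other way, with 9.92, 9.88 and 9.80 in DB3, against 9.63, 9.51 and 9.66 in AB (0.27 ± 0.079, adjusted p = 0.0585), and passed with centred arrays (0.29, adjusted p = 0.0289). Groups did not overlap for 1 cytosolic gene on the higher and 6 on the lower side, where 14.7% and 17.6% of all genes did so. Aars, Hars, Iars, Lars, Nars and Rars were the 6 on the lower side.

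The difference between these effects, DB3 minus sDB3 less AB minus sAB, was called for 0 of the 35 synthetases by limma's adjusted test. By the same test 3.45% of all genes tested were called positive and 2.59% negative (6.04% either way). At an unadjusted p under 0.05 there were 6 synthetases. The per-gene analysis of variance without moderation called 0, beside 242 positive and 206 negative among all 10435 genes. So a gene that passed in AB and not in DB3, such as Vars or Nars, was not shown to differ between the conditions. For Vars the difference was -0.38 ± 0.14 (adjusted p = 0.132) and for Nars -0.18 ± 0.099 (adjusted p = 0.288). Kars and Sars2 had effects of opposite sign, each without overlap of its groups: Kars 0.16 in DB3 against sDB3 and -0.18 in AB against sAB (difference 0.33 ± 0.11, adjusted p = 0.101), Sars2 -0.42 and 0.53 in the same comparisons (difference -0.95 ± 0.28, adjusted p = 0.0757).

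The shams differed in 4 of the 35 synthetases, a smaller share than among all genes. In sDB3 against sAB, 1 synthetase rose and 3 fell, where 5.49% of all genes tested rose and 12.3% fell (17.8% either way). Sars2, the mitochondrial seryl enzyme, had 7.48, 7.49 and 7.43 in sDB3, against 5.81, 6.78 and 6.65 in sAB, and rose 2.07-fold (1.05 ± 0.20, limma adjusted p = 0.00831). It is the synthetase with the widest range over the 12 arrays, 1.67 log2 units, and sAB replicate 1 was its lowest array. Rars had 8.95, 8.87 and 8.86 in sDB3, against 9.23, 9.22 and 9.21 in sAB, and fell by 0.33 (SE 0.065, adjusted p = 0.00924), a call kept in all 21 alternatives. Rars2 had 7.60, 7.41 and 7.36 in sDB3, against 7.72, 8.05 and 7.87 in sAB, and fell by 0.42 (SE 0.11, adjusted p = 0.0252). Lars2, the mitochondrial leucyl enzyme, had 9.14, 9.35 and 9.30 in sDB3, against 9.55, 9.51 and 9.46 in sAB, and fell by 0.24 (SE 0.070, adjusted p = 0.0363). A further, dimmer probe set of Lars2 gave 0.037 (limma adjusted p = 0.811 over all probe sets). The calls of Rars2 and Lars2 were lost without sAB replicate 2 or sAB replicate 3, among others (adjusted p up to 0.0805 and 0.107). With centred arrays 5 synthetases rose and 2 fell in place of 1 and 3.

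Set beside each other for the same amino acid, the cytosolic enzyme had the larger difference in most pairs. Pairs were formed for 13 of the amino acids with both enzymes measured. The cytosolic difference was above the mitochondrial in 12 pairs in AB against sAB, in 13 in AB against sDB3 and in 13 in DB3 against sDB3. Serine was the exception among these pairs in AB against sAB, where Sars2 (0.53) stood above Sars (0.31). The valine and methionine pairs hold Vars2 and Mars2, whose repeated values say little about the transcripts. Valine had the widest gap in AB against sAB (0.72), with Vars2 at 0. The median over the pairs of the cytosolic minus the mitochondrial difference was 0.33 in AB against sAB and 0.28 in DB3 against sDB3. In sDB3 against sAB the cytosolic difference was above in 7 pairs and in DB3 against AB in 4. AB against sDB3 shares arrays with both of these comparisons, and the pairs were drawn up with the values known. Phenylalanine (Farsa, Farsb and Fars2), glutamate (Eprs and Ears2) and proline (Eprs and Pars2) were measured but not paired. Farsb lay below Fars2 in AB against sAB (-0.22 and -0.080) and in DB3 against sDB3 (-0.035 and -0.0057). It lay above Fars2 in AB against sDB3 (-0.043 and -0.18). Farsa and Eprs lay above their mitochondrial partners in each of these comparisons.

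**Figure D4:**
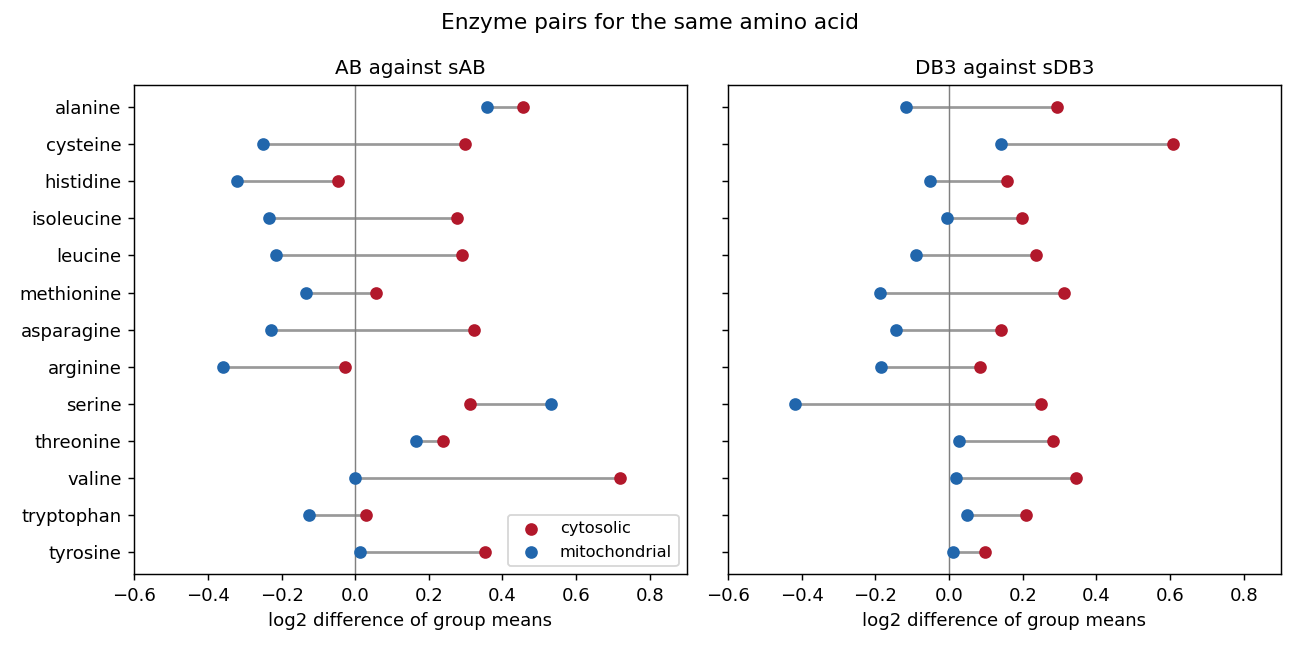
Log2 difference of group means (horizontal axes) of the cytosolic (red) and the mitochondrial (blue) enzyme for each of 13 amino acids, in AB against sAB and DB3 against sDB3; a grey line joins each pair. Red lies right of blue in 12 of 13 pairs in AB against sAB, with serine as the exception, and in 13 of 13 in DB3 against sDB3. The mitochondrial valine and methionine enzymes gave the same value on several arrays. Phenylalanine, glutamate and proline, also measured for both enzymes, are not drawn.

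Genes that rose were found both inside and outside the multisynthetase complex. Of its 7 measured enzymes (Eprs, Iars, Kars, Lars, Mars1, Qars and Rars), 3 rose in AB against sAB, 5 in AB against sDB3 and 1 in DB3 against sDB3. Of the 12 other cytosolic genes, 5, 6 and 2 rose in the same comparisons, where 12%, 17.3% and 5.37% of all genes tested rose. Of the 3 scaffold genes, 0 rose and 1 fell in AB against sAB (33.3% fell, beside 7.69% of all genes). Aimp2 had 10.02, 10.15 and 10.13 in AB, against 10.24, 10.49 and 10.33 in sAB (-0.26 ± 0.074, limma adjusted p = 0.0355), a call lost without any 1 AB replicate, sAB replicate 2 or sAB replicate 3. Its sAB arrays lay above all arrays of the other groups, as they did for 6.56% of all genes tested. By limma the 3 scaffold genes had 0 calls in AB against sDB3 and 0 in DB3 against sDB3 (2 and 1 at an unadjusted p under 0.05). No test was made of the enzymes in the complex against those outside it.

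Part of the genes of the ATF4 and amino acid response rose in AB along with the cytosolic synthetases. Of 28 tested, 8 rose and 1 fell in AB against sAB (28.6% and 3.57%, beside 12% and 7.69% of all genes). In AB against sDB3 8 rose and 1 fell (28.6% and 3.57%, beside 17.3% and 4.69%), and in DB3 against sDB3 3 rose and 0 fell (10.7% and 0%, beside 5.37% and 0.997%). The medians were 0.27, 0.26 and 0.26, beside 0.012, 0.11 and 0.091 over all genes tested. Asns, which makes asparagine from aspartate, had 5.76, 5.89 and 6.35 in AB, against 4.24, 4.85 and 4.82 in sAB, and rose 1.36 log2 units (SE 0.18, limma adjusted p = 0.00071). Slc7a5, an importer of large neutral amino acids, had 5.16, 5.90 and 5.41 in AB, against 3.58, 3.71 and 3.12 in sAB, and rose 2.02 (SE 0.26, adjusted p = 0.000659). Its sAB signals lie below the dim limit of 4, where folds are compressed. Mthfd2, a mitochondrial enzyme of folate metabolism, had 6.88, 7.20 and 7.27 in AB, against 5.83, 5.87 and 6.09 in sAB, and rose 1.19 (SE 0.23, adjusted p = 0.00578). Aldh1l2, another mitochondrial folate enzyme, was the gene that fell, with 4.79, 4.54 and 4.57 in AB, against 6.02, 6.17 and 5.66 in sAB (-1.32 ± 0.18, adjusted p = 0.000777). Atf4 itself, named after its values were seen, gave 0.35 ± 0.10 (adjusted p = 0.0351) and lost its call in 10 of 21 alternatives.

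After debanding 3 genes of this list rose against sDB3. Mthfd2 had 7.30, 6.27 and 7.17 in DB3, against 5.60, 5.26 and 5.33 in sDB3, and rose 1.52 (SE 0.23, limma adjusted p = 0.0131). The transcription factor Atf5 (0.49 ± 0.093, adjusted p = 0.0238) and Ppp1r15a, a phosphatase subunit that restores translation initiation (0.50 ± 0.094, adjusted p = 0.0226), rose too. Asns had 5.09, 5.01 and 5.18 in DB3, against 4.73, 4.53 and 4.73 in sDB3 (0.43 ± 0.18, adjusted p = 0.159). Against AB, Asns fell by 0.91 in DB3 (SE 0.18, adjusted p = 0.0119), Slc38a2, a sodium-coupled importer of neutral amino acids, fell by 0.86 (SE 0.12, adjusted p = 0.00339), and Aldh1l2 rose 0.92 (SE 0.18, adjusted p = 0.0107). So of these 28 genes 1 rose and 2 fell in DB3 against AB (10.7%, near the 9.16% of all genes called there). In AB against sDB3 the largest rises were those of Mthfd2 (1.72), Asns (1.34), Slc7a5 (1.11) and Trib3, a pseudokinase induced by ATF4 (1.002), with adjusted p of at most 0.0161. In sDB3 against sAB 3 rose (Cebpb 1.37, Slc7a5 0.91 and Atf5 0.55) and 0 fell, so these 3 genes also differ between the shams. Those shares were 10.7% and 0%, beside 5.49% and 12.3% of all genes (10.7% either way, beside 17.8%).

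**Figure D5:**
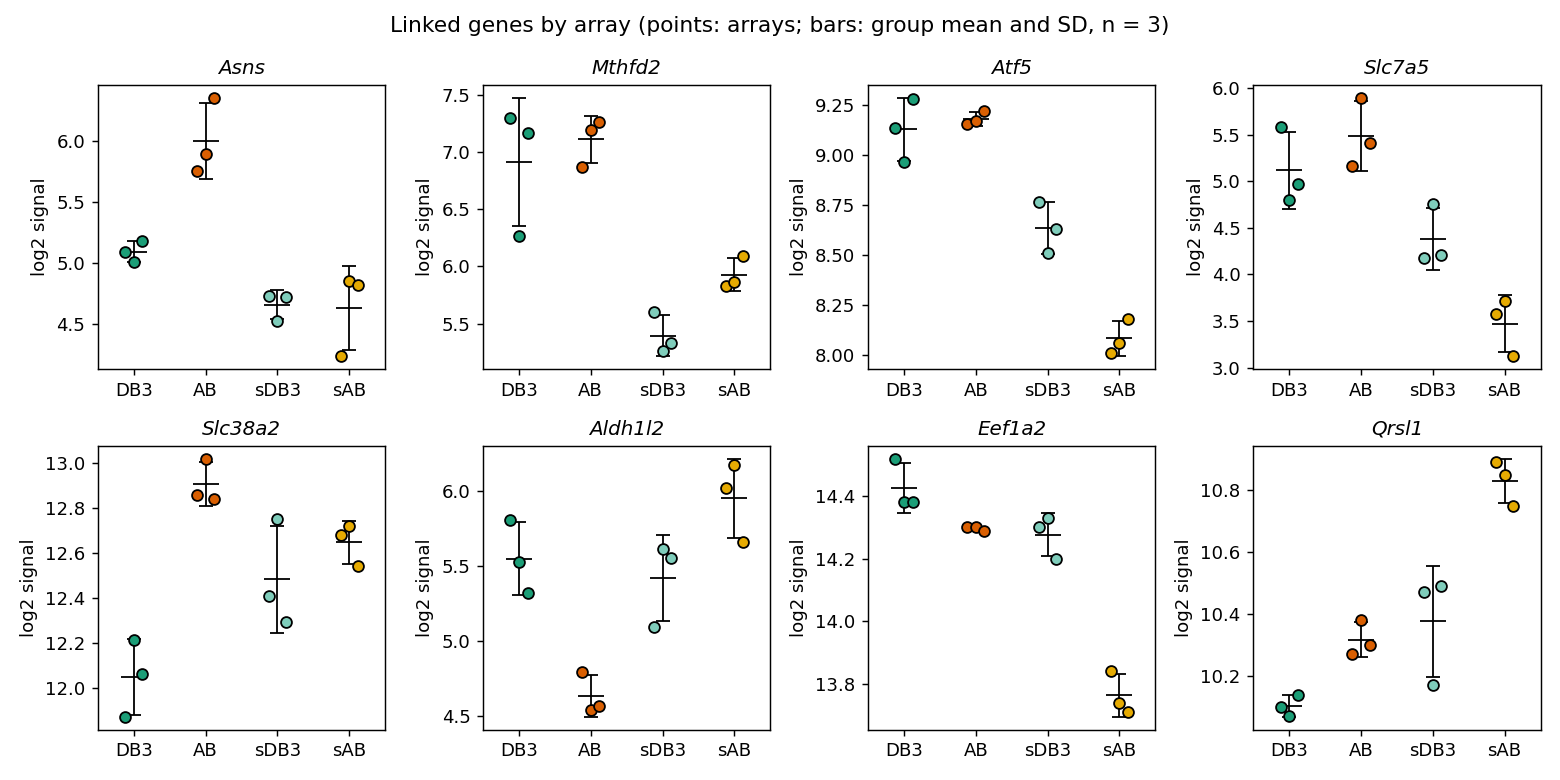
Log2 signal (vertical axes) of 8 genes of amino acid metabolism and translation on each array of DB3, AB, sDB3 and sAB; points are arrays and bars give the group mean and SD (n = 3). Asns is highest on the 3 AB arrays (5.76 to 6.35), Mthfd2 is higher on every DB3 and AB array than on any sham array, and Eef1a2 separates sAB (13.71 to 13.84) from all other arrays.

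The TGATGNAA letters occurred in 7 of the 24 ATF4 and amino acid response genes with a promoter (29.2%), among them Asns and Trib3. In the printed promoters they mark Aars, Iars and Tars, which rose in AB against sAB, Gars, which rose in AB against sDB3, and Yars, which passed in no comparison. Eprs and Sars rose in AB against sAB and hold no such letters in their promoters. Lars, Nars and Vars also rose there and are not among the 5 cytosolic genes with these letters. Only 12 of the 19 cytosolic genes had a promoter to search, so absence from the 5 need not mean a promoter without the letters.

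Genes that act with the synthetases had few calls, in both directions. Of 6 cytosolic elongation factors tested, 2 rose in AB against sAB (33.3%, beside 12% of all genes). Eef1a2, the muscle form that brings charged transfer RNA to the ribosome, rose by 0.53 (SE 0.066, limma adjusted p = 0.000566). Eef2, the translocase, rose by 0.27 (SE 0.069, adjusted p = 0.0189). Both also rose in sDB3 against sAB (0.51 and 0.27, adjusted p = 0.0015 and 0.0238), and by limma 0 of the 6 passed in AB against sDB3 or in DB3 against sDB3 (1 and 3 at an unadjusted p under 0.05). Of 8 genes of transfer RNA editing, amidation and formylation, 0 rose and 2 fell in AB against sAB (25% fell, beside 7.69% of all genes). Qrsl1, a subunit of the amidotransferase that makes mitochondrial glutaminyl-tRNA, had 10.27, 10.38 and 10.30 in AB, against 10.89, 10.85 and 10.75 in sAB (-0.51 ± 0.087, adjusted p = 0.00289), and Prorsd1 gave -0.23 (adjusted p = 0.0236). Both also fell in sDB3 against sAB, by 0.45 and 0.40, and by limma 0 of the 8 passed in AB against sDB3 or in DB3 against sDB3 (2 each at an unadjusted p under 0.05). Of 8 mitochondrial translation factors, 0 rose and 1 fell in AB against sAB (12.5% fell, beside 7.69% of all genes). That gene was Gfm1, an elongation factor (-0.40 ± 0.080, adjusted p = 0.00652), which also fell by 0.41 in sDB3 against sAB. Mtrf1l, a release factor, rose in AB against sDB3 (0.36) and DB3 against sDB3 (0.40, adjusted p = 0.0275) and fell by 0.59 in sDB3 against sAB. Tsfm, which recycles the mitochondrial elongation factor Tufm, fell by 0.48 in DB3 against AB (adjusted p = 0.0132). For Eef1a2, Eef2, Qrsl1 and Gfm1 the sAB arrays stood apart from the other groups together, which the cytosolic synthetases other than Eprs and Vars did not show.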

How the data were processed

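Total RNA (3 µg) from each left ventricle was labelled and hybridised to Affymetrix arrays, 1 per mouse, per the labels' protocols. The authors deposited 1 table of log2 signals per probe set, made with GCRMA per the submitters' processing notes. The GCRMA version and settings, and how many arrays each run held, were not given in the sources used here. Scanner files and scan dates were not used here. Of 45101 probe sets, 34945 carry 1 gene symbol and were named through the platform annotation, 932 carry several and 9160 none (both left out), and 64 are controls. Symbols were updated by gene ID, found for 34741. The dim filter kept 17817 probe sets and 10435 genes.

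Group means were compared with R 4.3.3 and limma 3.58.1 (lmFit, then eBayes, with 8 residual and 2.68 prior degrees of freedom) in 1 model of the 4 groups, after the series' text, which names an analysis of variance per gene. All p-values are two-sided. Counts at an unadjusted p under 0.05 are given without the share of all genes at that threshold, which was not taken. Benjamini-Hochberg adjustment ran over all genes tested, with a threshold of 0.05. The fit was also run on simulated data with known changes and independent noise per gene. Those data held no array offset or batch, so the run does not bear on either. With 3 arrays per group an exact permutation test reaches 0.1 at the lowest. Replicate numbers follow accession order. The spread is that between mice, and 3 arrays per group limit the precision. Each array had 42.4% to 43.1% of its probe sets over a log2 signal of 4.

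The synthetases and the other gene lists (scaffold, editing, elongation, mitochondrial translation, ATF4, interferon gamma, mitochondrial ribosome, cell markers) were chosen with earlier results of these data known. Each synthetase is named, with array values where it passed a test, and at most 4 genes of each other list per comparison, besides Atf4 and the genes of the closing section. Complex membership and amino acid pairs were assigned after the values were seen. Alternatives were other dim filters, other probe set rules, quantile normalization, median centring, no or robust moderation, fits of the compared groups alone and leaving out each array.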

Additional observations from a re-analysis of the deposited data

Results flagged for a closer look

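The difference between effects, (DB3 minus sDB3) minus (AB minus sAB), passed limma's adjusted test for 7 of the 140 genes of the linked lists (5%, near the 6.04% of all genes tested) and for 1 further probe set of a synthetase. Of the 7 cardiomyocyte markers, 2 were called lower, beside 2.59% of all genes tested. Each value comes from all 12 arrays, and every one of them uses the sAB arrays, whose BioC level stood apart.

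Aldh1l2, the mitochondrial folate enzyme, had an effect of 0.13 in DB3 against sDB3 and -1.32 in AB against sAB (difference 1.45 ± 0.25, SE, adjusted p = 0.0135). Mtrf1l, the release factor, had 0.40 and -0.23 in the same comparisons (difference 0.63 ± 0.12, adjusted p = 0.0174). These 2 differences passed in every alternative run, 19 for Aldh1l2 and 20 for Mtrf1l. Atf5 had 0.49 and 1.10 (difference -0.60 ± 0.13, adjusted p = 0.0296) and passed in 12 of 20 alternatives. Eef1a2 had 0.15 and 0.53 (difference -0.38 ± 0.094, adjusted p = 0.0408) and passed in 11 of 20. Slc38a2 had -0.44 and 0.26 (difference -0.70 ± 0.18, adjusted p = 0.0447) and passed in 7 of 20. Prorsd1 had 0.12 and -0.23 (difference 0.35 ± 0.085, adjusted p = 0.0411) and passed in 5 of 20. Gbp6, an interferon-induced GTPase, had 0.96 and 0.19 (difference 0.77 ± 0.20, adjusted p = 0.0482) and passed in 3 of 20. For the last 5 of these genes, leaving out 1 array took the adjusted p up to between 0.0747 and 0.112.

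Of the synthetases, a further Qars probe set had 0.14 in DB3 against sDB3 and -0.50 in AB against sAB (difference 0.64 ± 0.12, adjusted p = 0.0152 over all probe sets). The Qars probe set used in the report gave -0.040 for the same difference (adjusted p = 0.86).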

How the results depend on the processing

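No paired analysis was possible because the replicate numbers follow accession order and pair no animals. With 3 arrays per group and shifts of mostly under 0.5 log2 units, calls of single synthetases often sit near the threshold, and the cause of their loss was not tested. Leaving out each array in turn gave 6 to 12 synthetases in AB against sAB (6 without AB replicate 3), 7 to 13 in AB against sDB3 (7 without AB replicate 2 or AB replicate 3), 0 to 5 in DB3 against sDB3, 0 to 2 in DB3 against AB, 2 to 5 in sDB3 against sAB and 0 to 1 for the effects' difference. The counts over all genes ran from 1139 to 2119, from 1124 to 2354, from 170 to 535, from 365 to 1031, from 967 to 1945 and from 152 to 567 in the same order of comparisons.

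Quantile normalization gave medians, cytosolic and then mitochondrial, of 0.25 and -0.13 in AB against sDB3, 0.12 and -0.13 in DB3 against sDB3, -0.014 and -0.042 in sDB3 against sAB, -0.097 and -0.0012 for the effects' difference, and a mitochondrial median of -0.15 in AB against sAB. Centred arrays gave 0.18 and -0.15, 0.070 and -0.16, 0.044 and -0.0011, and -0.14 and -0.043 in the same order, and -0.14 for the mitochondrial median in AB against sAB. Quantile normalization left 0 synthetases in DB3 against sDB3 (199 genes, 107 higher and 92 lower, in place of 560 and 104) and 1 in DB3 against AB. Centring left 0 in DB3 against sDB3 (127 genes higher and 348 lower), 5 in AB against sDB3 (738 genes higher and 1320 lower, in place of 1809 and 489), 1 in DB3 against AB, 7 in sDB3 against sAB (1058 genes higher and 481 lower, in place of 573 and 1288) and 1 for the difference of effects (153 genes higher and 430 lower, in place of 360 and 270). With quantile normalization the gene splits were 1105 and 1058 in AB against sAB (1086 and 1075 with centring, in place of 1256 and 802), 918 and 726 in AB against sDB3, 712 and 735 in sDB3 against sAB and 229 and 344 for the effects' difference.

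Without the dim filter 323 genes passed in DB3 against sDB3, 338 for the effects' difference and 2 synthetases in DB3 against AB. The filter at log2 above 6 gave 5 synthetases in DB3 against sDB3 and 2 in DB3 against AB. With every probe set tested and the lowest p kept for each gene, 1 synthetase passed in each of DB3 against sDB3, DB3 against AB and the difference of effects. The analysis of variance without moderation gave 427 genes in DB3 against sDB3 and 2 synthetases in DB3 against AB. Trend and robust moderation gave 5, 2 and 7 synthetases in DB3 against sDB3, DB3 against AB and sDB3 against sAB. Fits of the compared groups alone gave 0 synthetases and 0 genes in DB3 against sDB3, 629 genes in DB3 against AB, and 571 genes and 1 synthetase in sDB3 against sAB, with 4 residual degrees of freedom in place of 8. Among differences that passed in either setting the sign turned for Qars alone, one of whose other probe sets gave -0.44 in sDB3 against sAB and 0.64 for the difference of effects. Differences that passed in neither setting also changed sign, such as those of Farsb in DB3 against sDB3 (0.24 on another probe set) and Yars2 in AB against sAB (-0.36 on another probe set).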

Other observations

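Mitochondrial ribosomal proteins, the partners of the mitochondrial synthetases in organelle translation, fell in part in AB. Of 76 tested, 0 rose and 13 fell in AB against sAB by limma (17.1% fell, beside 7.69% of all genes tested). At an unadjusted p under 0.05 there were 26, all lower. The median log2 difference was -0.11, beside 0.012 over all genes tested. The 4 largest falls were those of Mrpl14 (-0.51 ± 0.094, adjusted p = 0.00452), Mrpl50 (-0.44 ± 0.081, adjusted p = 0.00438), Mrps22 (-0.43 ± 0.083, adjusted p = 0.00517) and Mrps9 (-0.40 ± 0.074, adjusted p = 0.00456). In sDB3 against sAB 1 was higher and 10 were lower (13.2%, near the 12.3% of all genes), Mrps22 (-0.37), Mrps9 (-0.38) and Mrpl50 (-0.29) among them. Against sDB3, 1 rose and 5 fell in AB (1.32% and 6.58%, beside 17.3% and 4.69% of all genes), with Mrpl14 at -0.41 (adjusted p = 0.0138). In DB3 against sDB3 0 rose and 1 fell (0% and 1.32%, beside 5.37% and 0.997% of all genes), which was Mrps31 (-0.31, adjusted p = 0.0485). In DB3 against AB 0 rose and 3 fell (3.95%, beside 5.12% of all genes).

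Interferon gamma response genes, a list that bears on Wars because the tryptophanyl enzyme is known to be induced by interferon gamma, lay above their sham after debanding. Of 11 tested, all had positive differences in DB3 against sDB3, as did 69.2% of all genes, and 2 rose (18.2%, beside 5.37% of all genes) and 0 fell, with 7 at an unadjusted p under 0.05. The median was 0.52. The list also lay low in sDB3 against sAB, with a median of -0.26, 2 of 11 above 0 and 0 called (3 at an unadjusted p under 0.05, all lower). Psmb9, an immunoproteasome subunit, had 8.31, 7.83 and 7.25 in DB3, against 6.71, 6.62 and 7.14 in sDB3 (0.97 ± 0.23, adjusted p = 0.0357), a call kept in 10 of 21 alternatives. Gbp6 had 10.79, 10.44 and 10.50 in DB3, against 9.79, 9.28 and 9.79 in sDB3 (0.96 ± 0.14, adjusted p = 0.0116). The same 2 genes rose in AB against sDB3 (0.79 and 0.55), 18.2% of the list beside 17.3% of all genes. In AB against sAB 0 of 11 passed (1 at an unadjusted p under 0.05). Wars had 8.82, 8.42 and 8.30 in DB3, against 8.31, 8.34 and 8.27 in sDB3 (0.21 ± 0.11, limma adjusted p = 0.275), with DB3 replicate 1 the highest. Psmb9 and Gbp6 were also highest on DB3 replicate 1.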
